A study of Mus musculus with 4 samples.

Results

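The CD300 receptors of mouse are a family of cell-surface proteins with a single immunoglobulin-like domain, and their genes were followed here in plasmacytoid dendritic cells (pDCs) that lack the receptor tyrosine kinase gene Flt3. Members were taken as every gene whose symbol starts with Cd300 and that had a probe set annotated to it alone. This gave 8 of the 19938 genes measured: Cd300a, Cd300c, Cd300c2, Cd300e, Cd300lb, Cd300ld, Cd300lf and Cd300lg. The family was chosen by the opposing Flt3 KO minus WT differences of Cd300a, Cd300c and Cd300lf and by their WT levels, so these values are given as a description and are not tested. The RefSeq table lists 12 genes with such a symbol. Of the other 4, Cd300ld3, Cd300ld4 and Cd300ld5 share 2 probe sets and are described separately, and Cd300ld2 was not analysed here.

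The arrays held total RNA of mature pDCs sorted from mouse spleen at steady state, the spleens having been digested with collagenase B and DNase 1. One group was labelled WT and the other Flt3 KO, with 2 biological replicates each and 1 array per replicate. The sources used here do not give strain, age, sex, the part of Flt3 that is missing, or the number of mice in a replicate. The spread between replicates is therefore that between these samples, and 2 arrays per group limit the precision. An exact two-sided permutation test of 2 values against 2 cannot go below 0.333.

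CD300 receptors are carried mainly by myeloid cells and recognise lipids such as phosphatidylserine, which dying cells expose. Some members, among them Cd300a and Cd300lf, have long cytoplasmic tails with immunoreceptor tyrosine-based inhibitory motifs (ITIMs) that recruit the phosphatases encoded by Ptpn6, Ptpn11 and Inpp5d. Others have short tails and signal through adaptor proteins such as those encoded by Tyrobp (DAP12) and Fcer1g (the Fc receptor gamma chain). Most of the genes lie side by side in a cluster on chromosome 11, which holds 11 of the 12, and Cd300lg lies apart from it.

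The upstream sequences of the 3 members that chose the family are shown so that the regions in front of the opposing genes can be compared. Each is the 250 bases before the annotated start in RefSeq GRCm38.p6, read 5′ to 3′ on the strand of the gene. Capitals mark either of 2 motifs searched on both strands: GAGGAA, a core bound by ETS factors such as PU.1, and CACCTG, an E-box form bound by E proteins such as TCF4. The positions are chr11:114889791-114890040 on the plus strand for Cd300a, chr11:115133993-115134242 on the minus strand for Cd300lf and chr11:114960508-114960757 on the minus strand for Cd300c.
Cd300a: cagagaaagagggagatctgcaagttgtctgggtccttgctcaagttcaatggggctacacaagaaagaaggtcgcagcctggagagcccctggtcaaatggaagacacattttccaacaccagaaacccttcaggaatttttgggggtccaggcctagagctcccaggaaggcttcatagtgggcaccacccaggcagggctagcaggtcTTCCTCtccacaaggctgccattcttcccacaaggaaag
Cd300lf: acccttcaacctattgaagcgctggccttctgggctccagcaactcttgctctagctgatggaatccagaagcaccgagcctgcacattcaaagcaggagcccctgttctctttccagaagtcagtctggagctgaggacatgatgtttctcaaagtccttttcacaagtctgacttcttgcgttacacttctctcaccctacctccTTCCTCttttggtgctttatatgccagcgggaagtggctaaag
Cd300c: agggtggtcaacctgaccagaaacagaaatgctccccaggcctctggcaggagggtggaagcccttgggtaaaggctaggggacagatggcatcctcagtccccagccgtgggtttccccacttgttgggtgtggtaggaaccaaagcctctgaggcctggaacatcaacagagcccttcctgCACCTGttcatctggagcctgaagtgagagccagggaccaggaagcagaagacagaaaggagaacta
Cd300a and Cd300lf each held 1 GAGGAA, on the opposite strand, and no CACCTG. Cd300c held 1 CACCTG but lacked the ETS core in this window. Among the 10 family windows in the table, GAGGAA was present in 7, of which 3 are near-identical to each other; of all 32851 windows 23.3% held it. CACCTG was present in 1 of 10 and in 17.2% of all. The wider E-box CANNTG, of which CACCTG is 1 form, was present in 7 of 10, again including the 3 near-identical windows, and in 66.2% of all. A match in these letters describes the window and is not a binding site.

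Flt3 was checked first. Its log2 intensities were 10.71 and 10.77 in WT against 8.46 and 8.61 in Flt3 KO, a difference of −2.21 (SE 0.066, limma adjusted p = 7.4e-05), so the array labels and the targeted gene go together. Median intensities of the 4 arrays lay between 55.1 and 57.2, with both Flt3 KO medians above both WT medians. The upper quartiles ran the other way, at 215 and 213 in WT against 206 and 209 in Flt3 KO. Over all genes, 476 of 19938 passed the threshold of a limma adjusted p under 0.05. After each array was centred on its median 669 passed, so the scale bears on the calls. Monocyte and macrophage markers were not even between the Flt3 KO arrays. Over 26 of them the median log2 difference from the WT mean was 0.16 on the array of Flt3 KO replicate 1 but 0.53 on that of replicate 2. The medians of the other cell type lists lay closer together. The widest apart of those were the T and NK cell markers, at 0.094 and −0.047.

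**Figure D1:**
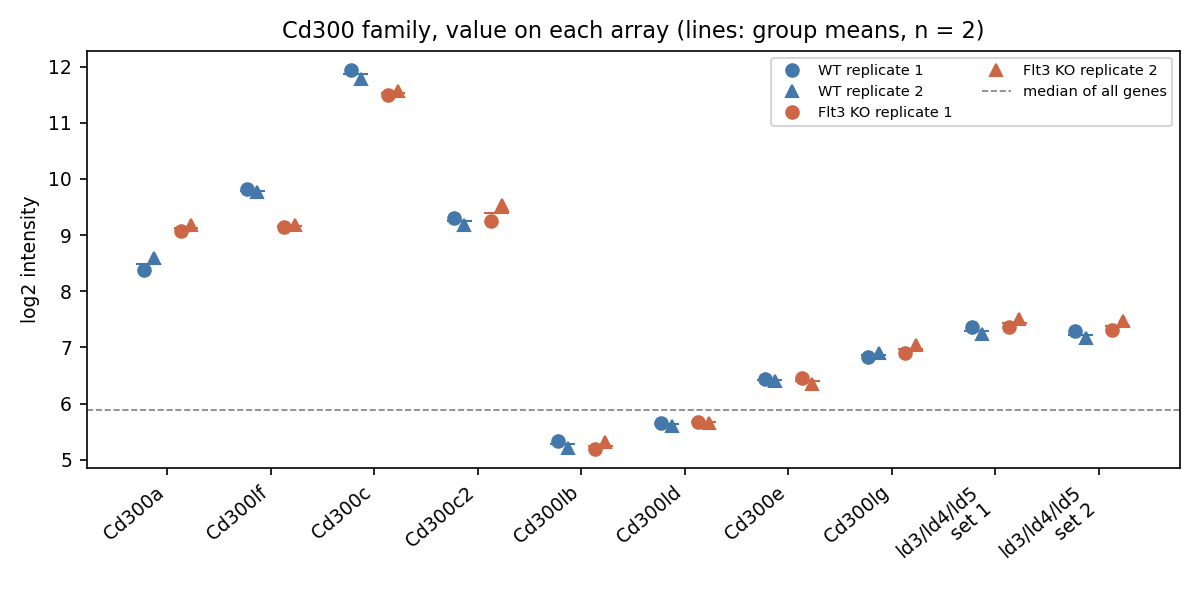
Log2 intensity of each Cd300 gene on each of the 4 arrays (blue WT, orange Flt3 KO, circles replicate 1, triangles replicate 2, lines group means of 2 arrays). Cd300a is higher on both Flt3 KO arrays, Cd300lf and Cd300c are lower on both, and the WT and Flt3 KO points of the other 5 members overlap. The dashed line is the median of all genes, 5.89.

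The 2 members known as ITIM-bearing inhibitory receptors were opposed. Cd300a, which binds phosphatidylserine and phosphatidylethanolamine, had intensities of 331.1 and 386.0 in WT against 538.2 and 577.6 in Flt3 KO. Both Flt3 KO values lay above both WT values. In log2 this was 8.48 ± 0.16 in WT and 9.12 ± 0.072 in Flt3 KO (mean ± SD, n = 2 each), a difference of 0.64 (SE 0.086), or 1.56-fold. Flt3 KO replicate 1 exceeded the WT mean by 0.59 and replicate 2 by 0.69.

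Cd300lf, a lipid-binding inhibitory receptor that also serves murine norovirus for entry, went the other way. Its intensities were 901.0 and 873.8 in WT against 568.4 and 577.8 in Flt3 KO, again without overlap. The log2 means were 9.79 ± 0.031 and 9.16 ± 0.017 (SD, n = 2 each). Cd300lf was thus lower by a log2 difference of −0.63 (SE 0.053), with WT 1.55-fold above Flt3 KO. The replicates of Cd300lf were the closest of the 3 opposing members, 0.044 apart in WT and 0.024 in Flt3 KO on the log2 scale. For Cd300a these gaps were 0.22 and 0.10.

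Cd300c, read by a bright probe set, gave intensities of 3944 and 3528 in WT against 2890 and 3042 in Flt3 KO, again with both Flt3 KO values below both WT values. The log2 means were 11.87 ± 0.11 and 11.53 ± 0.052 (SD, n = 2 each), a difference of −0.33 (SE 0.061), and WT stood 1.26-fold above Flt3 KO. The shortfall was −0.37 in replicate 1 and −0.29 in replicate 2 of Flt3 KO. In a bulk sample, fewer cells of a type and less RNA per cell cannot be told apart, for Cd300c as for every member.

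Cd300a was called higher, and Cd300lf and Cd300c lower, by the fit over all genes. That is 3 of 8 members, against 2.39% of all genes called in either direction, 1.08% higher and 1.31% lower. Nothing is read from this count, since the contrast chose the family. The same 3 were the members whose replicate values did not overlap, which was the case for 47.2% of all genes, 21.9% higher and 25.3% lower. The median log2 difference of the 8 members was 0.0088, against −0.0010 for all genes, and the median absolute difference was 0.12, against 0.097. By the size of the difference Cd300a and Cd300lf both exceeded 99.1% of all genes, and Cd300c exceeded 94.0%. The Cd300c call was lost with the replicate number as a block, and with all 30177 probe sets tested together. Those of both Cd300a and Cd300c were lost without the intensity trend. With WT replicate 1, WT replicate 2, Flt3 KO replicate 1 or Flt3 KO replicate 2 left out, 0 of the 8 members were called in each case; the differences then ranged from 0.53 to 0.75 for Cd300a, −0.65 to −0.61 for Cd300lf and −0.41 to −0.25 for Cd300c.

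**Figure D2:**
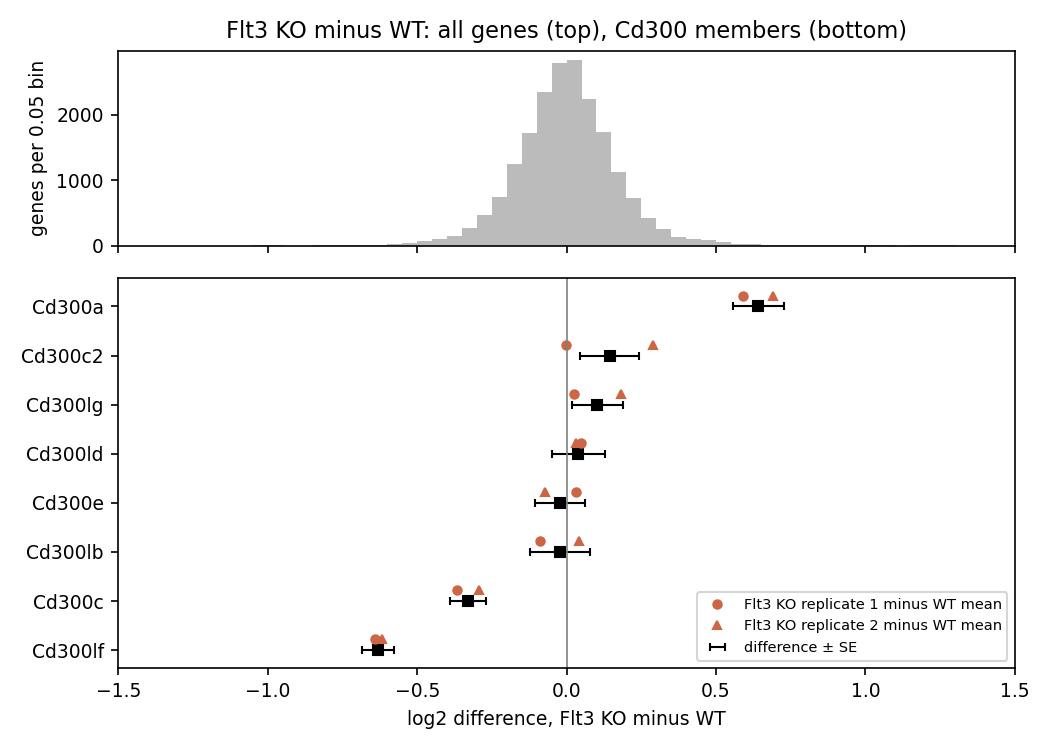
Log2 differences, Flt3 KO minus WT. The upper panel counts all genes in bins of 0.05 within the axis range; in the lower panel squares with bars are each member's difference and SE, and the orange points are each Flt3 KO array minus the WT mean (circle replicate 1, triangle replicate 2). Cd300a lies at 0.64, Cd300c at −0.33 and Cd300lf at −0.63, and the other 5 members lie between −0.023 and 0.14.

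Cd300c2 (MAIR-II), which signals through DAP12 and the Fc receptor gamma chain, had log2 intensities of 9.31 and 9.19 in WT against 9.24 and 9.54 in Flt3 KO. Only Flt3 KO replicate 2 stood above the WT range. The difference was 0.14 (SE 0.099), with 0.29 above the WT mean in Flt3 KO replicate 2 and −0.0027 in replicate 1, so that its sign turned when replicate 2 was left out. Among the members Cd300c2 had the widest gap between Flt3 KO replicates, 0.29. Flt3 KO replicate 2 was also the Flt3 KO array with the higher summed level of monocyte and macrophage markers; their part in this value was not tested.

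Cd300lb, an activating receptor that uses DAP12, gave 5.33 and 5.21 in WT against 5.18 and 5.31 in Flt3 KO (difference −0.023, SE 0.10). Cd300ld, which pairs with the Fc receptor gamma chain, gave 5.66 and 5.60 against 5.68 and 5.66 (difference 0.039, SE 0.088). Both lay below 5.89, the median of all genes, in every array, where signal over background is low, so a change in these 2 genes may not be measurable here. The sign of the Cd300ld difference turned under quantile normalization, to −0.0030.

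Cd300e, whose human counterpart marks monocytes, had log2 intensities of 6.45 and 6.41 in WT against 6.46 and 6.35 in Flt3 KO. The difference was −0.022 (SE 0.084), and the values overlapped. Cd300lg (nepmucin), a mucin-like member of endothelial cells, gave 6.83 and 6.90 in WT against 6.89 and 7.05 in Flt3 KO, a difference of 0.10 (SE 0.086). Of 11 endothelial markers 0 were called in limma (unadjusted p under 0.05: 0 higher, 2 lower, where 17.1% of all genes had such a p, 6.95% higher and 10.1% lower), and their median difference was −0.14; the lowest adjusted p belonged to Kdr (−0.28, limma adjusted p = 0.10) and Pecam1 (−0.15, 0.25). The 5 members with overlapping replicates included the 4 whose gap between the Flt3 KO arrays exceeded that between the WT arrays.

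Cd300ld3, Cd300ld4 and Cd300ld5 cannot be separated by the 2 probe sets they share. To show how alike the copies are, the 250 bases in front of Cd300ld4 (chr11:115026934-115027183, minus strand) and Cd300ld3 (chr11:115048331-115048580, minus strand) are given, from the same RefSeq build, with the bases that differ in capitals.
Cd300ld4: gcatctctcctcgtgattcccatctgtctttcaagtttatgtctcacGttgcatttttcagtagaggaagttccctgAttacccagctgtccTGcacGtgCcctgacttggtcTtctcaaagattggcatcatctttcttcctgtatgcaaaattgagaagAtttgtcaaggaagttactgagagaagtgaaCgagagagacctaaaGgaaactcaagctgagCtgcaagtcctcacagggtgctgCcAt
Cd300ld3: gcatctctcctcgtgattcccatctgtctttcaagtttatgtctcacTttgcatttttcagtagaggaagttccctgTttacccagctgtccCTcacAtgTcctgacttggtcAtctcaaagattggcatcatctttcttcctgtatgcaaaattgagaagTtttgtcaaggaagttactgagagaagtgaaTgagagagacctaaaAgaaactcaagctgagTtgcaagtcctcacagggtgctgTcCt
They differed at 13 of 250 positions, an identity of 94.8%, and the Cd300ld5 window was identical to that of Cd300ld4. The first shared probe set had log2 intensities of 7.36 and 7.23 in WT against 7.36 and 7.51 in Flt3 KO. The second had 7.29 and 7.17 in WT against 7.32 and 7.46 in Flt3 KO. Their differences were 0.14 (SE 0.090) and 0.16 (SE 0.088), with overlapping replicates in the first and Flt3 KO above WT in the second; neither was called when all probe sets were tested together. As in Cd300c2, Flt3 KO replicate 2 was the highest array in both.

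The cluster was then placed among its neighbours in gene order. Of the 10 protein-coding genes on either side and Rab37, which overlaps the stretch of Cd300lf, 20 of 21 were measured. Among these 1 rose, 0 fell and 19 did not pass, with a median of 0.056, where 2.39% of all genes were called. At an unadjusted limma p under 0.05 the counts were likewise 1 higher and 0 lower, where 6.95% of all genes were higher and 10.1% lower. The gene that rose was Gprc5c, an orphan G protein-coupled receptor gene and the immediate neighbour of Cd300a. Gprc5c had log2 intensities of 6.98 and 6.91 in WT against 8.04 and 8.28 in Flt3 KO, a difference of 1.21 (SE 0.094, limma adjusted p = 0.0037). On the other side of Cd300a, Cd300lb was at −0.023. At the far end Cd300lf was flanked by Rab37, at −0.17 (SE 0.14, limma adjusted p = 0.59), and the scaffold gene Slc9a3r1, at 0.046 (SE 0.056, limma adjusted p = 0.74). Of the genes beside called members, Cd300lb, Cd300ld and Rab37 were not called, but each lay below 5.89, the median of all genes, on every array. A change in such dim genes may not be measurable here. Slc9a3r1, with log2 means of 9.30 in WT and 9.35 in Flt3 KO, lay above that median and was not called either. Of the 20 measured neighbours, 8 lay below the median on all arrays. Whether the called members share a regional change with Gprc5c was not tested.

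**Figure D3:**
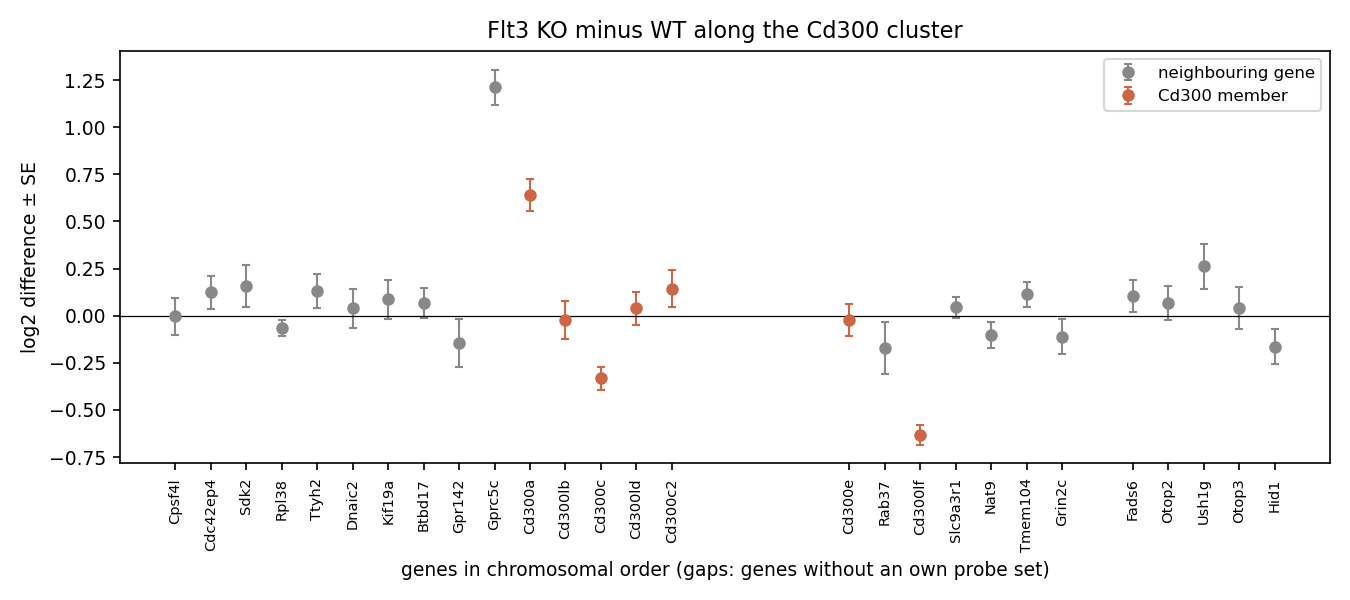
Log2 difference, Flt3 KO minus WT, with its SE for the Cd300 genes (orange) and their protein-coding neighbours (grey) in chromosomal order, not to scale in distance. Gprc5c (1.21) and Cd300a (0.64) are the highest, adjacent genes, Cd300lf (−0.63) is the lowest, and the genes between them include values near 0.

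The signalling partners of the family were read in the same fit. Of 21 measured adaptors, kinases and phosphatases of paired receptors, 0 rose, 1 fell and 20 did not pass (median 0.0021), where 2.39% of all genes were called. At an unadjusted limma p under 0.05, 3 of the 21 were higher and 7 lower, where 6.95% of all genes were higher and 10.1% lower. The adaptor gene Tyrobp had log2 intensities of 12.22 and 12.18 in WT against 12.05 and 12.03 in Flt3 KO, a difference of −0.16 (SE 0.039) with a limma adjusted p of 0.089. After each array was centred on its median Tyrobp was at −0.20, with an adjusted p of 0.039. Fcer1g differed by −0.045 (SE 0.065, limma adjusted p = 0.79), and Hcst, which encodes the adaptor DAP10, by −0.28 (SE 0.078, limma adjusted p = 0.13).

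Of the phosphatase genes that ITIMs engage, Ptpn6 (SHP-1) differed by −0.064 (SE 0.043, limma adjusted p = 0.51). Ptpn11 (SHP-2) differed by 0.17 (SE 0.056, limma adjusted p = 0.19) and Inpp5d (SHIP-1) by 0.040 (SE 0.052, limma adjusted p = 0.76). The one that fell was the Src-family kinase gene Fyn, from 11.68 and 11.65 in WT to 11.36 and 11.34 in Flt3 KO, a difference of −0.32 (SE 0.041, limma adjusted p = 0.013); without the intensity trend the adjusted p was 0.13.

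Among 36 other paired and inhibitory receptors of myeloid cells, 1 rose, 2 fell and 33 did not pass (median 0.0089). Of all genes 2.39% were called. At an unadjusted limma p under 0.05, 8 of the 36 were higher and 9 lower. Over all genes 6.95% were higher and 10.1% lower at that p. Cd200r1, an inhibitory receptor gene for CD200, rose by 0.57 (SE 0.084, limma adjusted p = 0.021). Clec12a, a C-type lectin gene with an ITIM, fell by 0.31 (SE 0.052, limma adjusted p = 0.035), and Cd72, another ITIM receptor gene, fell by 0.42 (SE 0.065, limma adjusted p = 0.025). Without the intensity trend all 3 calls were lost (limma adjusted p of 0.061 for Cd200r1, 0.15 for Clec12a and 0.097 for Cd72). The Clec12a call was also lost under the replicate block (0.056), and those of Clec12a (0.075) and Cd72 (0.058) with all probe sets tested together.

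Among 21 other genes of phosphatidylserine recognition, 2 rose, 1 fell and 18 did not pass (median 0.059), where 2.39% of all genes were called. An unadjusted limma p under 0.05 was reached by 3 higher and 3 lower genes of this list, against 6.95% and 10.1% of all genes. Anxa5, which encodes a phosphatidylserine-binding annexin, rose by 0.50 (SE 0.063, limma adjusted p = 0.013), and Pros1, the gene of the bridging protein S, rose by 0.66 (SE 0.093, limma adjusted p = 0.018) from a WT level of 5.41, below the median of all genes. Havcr1, which encodes the phosphatidylserine receptor TIM-1, fell by 0.54 (SE 0.068, limma adjusted p = 0.012). Without the intensity trend the calls of Anxa5 (limma adjusted p = 0.075) and Havcr1 (0.063) were lost. Over all lists and neighbours 31 genes were called; with 1 array left out this count was 0 without either WT replicate, 6 when Flt3 KO replicate 1 was left out and 1 when replicate 2 was.

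Markers of the cells that could be present beside pDCs were read on the same arrays. Of 27 pDC identity genes 1 rose, 11 fell and 15 did not pass (median −0.24), where 1.08% of all genes rose and 1.31% fell. At an unadjusted limma p under 0.05, 1 of the 27 was higher and 18 were lower. The shares of all genes at that p were 6.95% and 10.1%. All 27 lay above the median of all genes on all 4 arrays. The shares over all genes include dim genes, so they are not those of genes this bright. With only genes above the median tested, 284 were called higher and 440 lower, against 215 and 261 with all tested. This list, like the others, was drawn up with earlier results of these data known. The 6 with the lowest adjusted p were Rpgrip1 (−0.78, limma adjusted p = 0.0048), Cox6a2 (−0.76, 0.0069), Pltp (−0.41, 0.0069), Tlr7 (−0.49, 0.0076), Ccr9 (−0.43, 0.0085) and Grm8 (−0.49, 0.011). Without the intensity trend those of Tlr7 (limma adjusted p = 0.060), Grm8 (0.062), Pltp (0.086) and Ccr9 (0.088) did not pass. The member of the list that rose, Cbfa2t3 (0.48, limma adjusted p = 0.030), is named after its value was seen; its call was lost without the intensity trend (0.095) and with all probe sets tested together (0.067). Of the 15 that did not pass, Zeb2 (0.082), Bcl11a (0.077), Il3ra (0.074) and Lag3 (0.0065) had positive differences. Negative were Dntt (−0.34), Pld4 (−0.25), Pacsin1 (−0.24), Atp1b1 (−0.24), Tlr9 (−0.20), Upb1 (−0.16), Cdh1 (−0.14), Siglech (−0.13), Bst2 (−0.074), Ptprs (−0.064) and Tcf4 (−0.043). Cd300c, at −0.33, and Cd300lf, at −0.63, lay in the same direction as the median of this list and Cd300a did not. A relation of the members to these genes was not tested.

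Of 26 monocyte and macrophage markers 6 rose, 0 fell and 20 did not pass (median 0.34), where 1.08% of all genes rose and 1.31% fell. At an unadjusted limma p under 0.05, 14 were higher and 0 lower, against 6.95% and 10.1% of all genes. Those that rose were Ccr2 (0.70, limma adjusted p = 0.0046), Fn1 (0.88, 0.0085), Cx3cr1 (1.03, 0.015), Cd14 (1.08, 0.020), Lyz2 (0.51, 0.027) and Lyz1 (0.48, 0.039); Lyz1 and Lyz2 are close copies whose probes can share signal. The summed intensity of this list was 6125 and 5559 in WT against 6801 and 8817 in Flt3 KO, and 17 of the 26 lay above the median of all genes on all 4 arrays, 6 below it on all. Between Flt3 KO replicates 1 and 2, Cx3cr1 (8.63 and 9.06) and Cd14 (9.11 and 9.65) differed the most of these 6. Ccr2 (9.16 and 9.19), Fn1 (6.56 and 6.44), Lyz2 (8.06 and 8.04) and Lyz1 (6.76 and 6.77) were closer. Cd300a was at 9.07 and 9.17 on these 2 arrays, and its relation to the markers was not tested. Without the intensity trend the calls of Cx3cr1 (limma adjusted p = 0.060), Cd14 (0.071), Lyz1 (0.079) and Lyz2 (0.086) were lost. Those of Lyz1 (0.077) and Lyz2 (0.061) were also lost with all probe sets tested together, and that of Lyz1 under the replicate block (0.056).

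Of 18 conventional dendritic cell markers 5 rose, 1 fell and 12 did not pass (median 0.10). The shares over all genes were 1.08% higher and 1.31% lower. An unadjusted limma p under 0.05 was reached by 8 higher and 1 lower, against 6.95% and 10.1% of all genes. The one that fell was Flt3, and Tmem176b (0.90, limma adjusted p = 0.0037), Tmem176a (0.89, 0.0076), Il1b (0.97, 0.011), Nectin1 (0.78, 0.015) and Dpp4 (0.29, 0.049) rose. The Dpp4 call was lost under the replicate block (limma adjusted p = 0.083), after median centring (0.069), with all probe sets tested together (0.097) and without the intensity trend (0.16). Those of Nectin1 (0.051) and Il1b (0.052) were lost without the trend. Of the 12 that did not pass, Zbtb46 (0.48), Cd209a (0.24), Itgax (0.22), Esam (0.11), Sirpa (0.090) and Cadm1 (0.0066) had positive differences. Those of Clec4a4 (−0.15), Xcr1 (−0.13), Clec10a (−0.12), Clec9a (−0.10), Mgl2 (−0.094) and Batf3 (−0.064) were negative. The summed intensity of the conventional dendritic cell list was 12098 and 11691 in WT against 11794 and 12085 in Flt3 KO. That sum includes Flt3, the targeted gene, at log2 10.71 and 10.77 in WT against 8.46 and 8.61 in Flt3 KO. Its loss lowers the Flt3 KO sums, so they do not show how the rest of the list moved. Of 13 neutrophil, 11 mast cell and basophil, 9 B cell and 11 T and NK cell markers, 0 of each were called in limma, with medians of −0.0037, 0.043, −0.073 and 0.024. At an unadjusted limma p under 0.05 there were 4, 1, 3 and 2 of them, where 17.1% of all genes had such a p. The lowest adjusted p in each list belonged to S100a8 (−0.34, limma adjusted p = 0.26) and Csf3r (0.32, 0.27), Hdc (0.38, 0.18) and Gata2 (0.10, 0.62), Cr2 (0.35, 0.10) and Cd79b (−0.25, 0.14), and Cd3e (0.29, 0.20) and Cd3d (0.35, 0.25). On all 4 arrays 8 of the 13 neutrophil and 10 of the 11 mast cell and basophil markers lay below the median of all genes. The part of other cells in the Cd300 values was not tested.

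**Figure D4:**
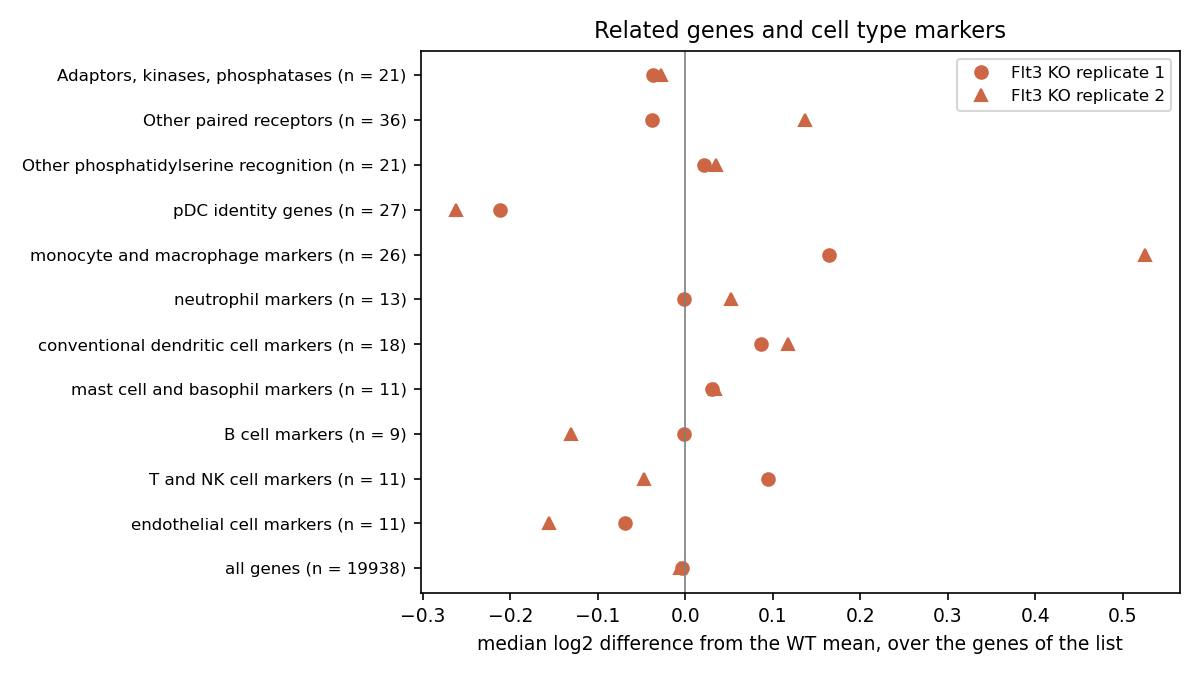
Median log2 difference from the WT mean over the measured genes of each list, for Flt3 KO replicate 1 (circles) and replicate 2 (triangles). Monocyte and macrophage markers are at 0.16 and 0.53 and pDC identity genes at −0.21 and −0.26, while the adaptors, kinases and phosphatases lie at −0.037 and −0.028.

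The genes whose 4 values ran closest to each opposing member were found by Euclidean distance between profiles after subtraction of each gene's mean, over 9968 other genes above the median. For Cd300a they were Card10 (distance 0.058, a scaffold gene of NF-κB signalling), Bach1 (0.069, a transcriptional repressor gene of haem metabolism) and Stat4 (0.092, a transcription factor gene of IL-12 signalling). For Cd300lf they were the olfactory receptor gene Olfr166 (0.034), the predicted gene Gm829 (0.049) and Rhobtb2 (0.053). For Cd300c they were Donson (0.018), Iqsec1 (0.019) and Ctps (0.026). These last 3 differed by −0.34, −0.33 and −0.34 and were not called (limma adjusted p of 0.088, 0.072 and 0.12). The genes named for Cd300a and Cd300lf were called. Likeness over 4 arrays is a description, and many genes that differ by a similar amount will resemble each other.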

How the data were processed

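Total RNA of sorted spleen pDCs was labelled with biotin through a whole-transcript kit and hybridised to 4 arrays, per the labels. Intensity values of 30177 probe sets, on a linear scale, were used as deposited; the sources used here do not give how the authors corrected, summarised and scaled them, so a residual offset between arrays could move every difference. Gene names came from the platform annotation (21789 with 1 symbol, 1621 with several, 6767 with none); of those with 1 symbol, 21698 matched a RefSeq gene identifier. The probe set with the highest mean stood for each of 19938 genes; each Cd300 member had 1. Intensities were converted to log2 with no pseudocount and no filter.

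Flt3 KO was set against WT in limma 3.58.1 (R 4.3.3; lmFit, then eBayes with trend, no covariate), and p-values were adjusted by Benjamini-Hochberg over all 19938 genes. SE is the moderated one. The script was tested on simulated data. The members and lists were chosen with earlier results of these data known. Genes named are all members, Flt3, 6 fixed partners, up to 6 called genes of each other list (without a call, the 2 lowest p), called neighbours, and the 3 nearest profiles; the values of Rab37 and Slc9a3r1 are given as the flanks of Cd300lf. Uncalled genes of the pDC and conventional dendritic cell lists are also given. Several lists share genes. Alternatives changed the block, trend, robustness, scaling, offset, dim-gene filter, probe set choice or left out 1 array.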

Additional observations from a re-analysis of the deposited data

How the results depend on the processing

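The differences of Cd300a, Cd300lf, Cd300c and Cd300lg kept their sign in all 13 alternatives, whereas those of Cd300c2, Cd300e, Cd300lb and Cd300ld turned in 1 to 2 of theirs. Changing the block, trend, robustness, dim-gene filter or probe set choice cannot move a member's difference, so those settings do not probe its sign. For Cd300a, Cd300lf and Cd300c, whose replicates did not overlap, leaving out 1 array could not turn the sign either. Adding 16 to each intensity keeps the order of the arrays, so it could not do so for these 3. That leaves only scaling. Median centring moved the median difference of all genes only from −0.0010 to −0.039, little beside the differences of these 3. Without the intensity trend 108 genes were called in all, 1 member (Cd300lf) and 9 list genes. With only genes above the median tested, 724 genes were called, and 219 with all probe sets tested together. The replicate numbers shared by the genotypes do not pair the samples by the labels, and the gaps between replicates 1 and 2 correlated at −0.017 between genotypes across genes; with the number as a block, 375 genes, 2 members and 28 list genes were called. With 1 array left out, the lone array of a group being assumed to vary like the others, calls ranged from 0 to 54 genes, 0 to 0 members and 0 to 6 list genes, with 2068 to 2689 genes at an unadjusted limma p under 0.05. The sign of Fcer1g turned without WT replicate 1 (range with 1 array left out −0.14 to 0.053), as did that of Rab37 (−0.36 to 0.016), and that of Inpp5d without Flt3 KO replicate 2 (−0.0092 to 0.088). Called genes were 45.2% higher as deposited and 32.4% after median centring, which moved the median of all genes to −0.039. The cause of these shifts was not tested. Dim probe sets, such as those of Cd300lb and Cd300ld, limit what can be seen.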
